A study of Canis lupus familiaris with 12 samples.

Results

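The kinesin and tubulin genes are the motors and the building blocks of the microtubule cytoskeleton. They were taken by symbol from the deposited table, as every entry named KIF or KIFC followed by a digit or starting with TUBA, TUBB, or TUBG, and 50 of the 13672 listed genes met this rule. RNA was sequenced from MDCKII cells, an untreated epithelial line from dog kidney, in 4 genotypes: unmodified cells (WT), cells with a KO of CGN (CGN-KO) or of CGNL1 (CGNL1-KO), and double-KO cells with both genes disrupted. CGN (cingulin) is a cytoplasmic protein of tight junctions, and CGNL1 (paracingulin) is one of tight and adherens junctions. The comparisons ask which mRNAs differ when one or both genes are disrupted. Each genotype had 3 libraries of cells cultured for 3 d, and the labels give each KO genotype 1 line code, so the loss of the gene and the line cannot be told apart. The labels do not say whether the libraries of a genotype came from separate cultures, so that the p-values measure the spread between libraries, which may be technical.

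Microtubules are hollow polymers of alpha- and beta-tubulin, and gamma-tubulin with its complex proteins (TUBGCP) forms the template from which they grow. Kinesins are motors that use ATP to walk along microtubules or to take them apart. Mitotic kinesins build the spindle, move chromosomes, and complete cytokinesis, and their mRNAs are made mainly by dividing cells. Transport kinesins carry vesicles, endosomes, and other cargo in cells of all stages. In epithelial cells the microtubules run mostly from apex to base and guide traffic to the apical and basolateral membranes.

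By these roles the 50 genes were 12 mitotic kinesins, 14 transport kinesins, 9 other kinesins, 2 alpha-tubulins, 6 beta-tubulins, 6 genes of gamma-tubulin and its complex, and KIF1BP. KIF1BP encodes a protein that binds kinesin motor domains and is not itself a motor, so that it entered through its letters alone. 49 genes passed the filter of more than 1 CPM (counts per 1000000 reads, as scaled by the authors) in at least 3 libraries. The exception was the beta-tubulin entry TUBB4B, which lay between 0.290 and 0.903 CPM in the 12 libraries. A second entry of that name, TUBB4B_1, was abundant, and reads of near-identical beta-tubulins may be divided between entries in a way these data do not show.

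Library totals recovered from the values were between 16837532 and 30086076 reads. CGN mRNA was 47.0 to 56.5 CPM in CGN-KO cells and 39.7 to 45.3 CPM in double-KO cells, against 198 to 233 CPM in the other genotypes. CGNL1 mRNA was 1.11 to 3.02 CPM in CGNL1-KO and double-KO cells, against 5.04 to 12.3 CPM in the others. All 10 kidney epithelium markers were listed, with a summed level of 7449 to 8226 CPM, although the kidney cadherin CDH16 had a mean of only 1.45 CPM in WT cells. None of 5 fibroblast markers was listed, and 1 of 4 was listed for each of endothelium (KDR, 0.0969 to 2.41 CPM), leucocytes (CD68, 0.560 to 1.34 CPM), and neurons (MAP2, 26.6 to 35.2 CPM).

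Each KO line was compared with WT cells by limma on log2(CPM + 1) over all 12650 genes tested, with Benjamini-Hochberg adjustment and a threshold of 0.05 on the adjusted p. Differences on this log2 scale understate the change of genes with few reads. In CGN-KO cells 11 of 49 kinesin and tubulin genes differed from WT (22.4%, against 19.0% of all genes tested). Of these 7 were higher and 4 were lower, where 11.2% of all genes were higher and 7.87% lower. The count in CGN-KO cells was 6 without WT replicate 2 or CGN-KO replicate 1. In CGNL1-KO cells 5 genes differed (10.2%, against 10.3% of all genes), 3 higher and 2 lower, where 6.81% of all genes were higher and 3.49% lower. In double-KO cells 10 genes differed (20.4%, against 26.3% of all genes), 7 higher and 3 lower, where 14.8% of all genes were higher and 11.5% lower. The gaps between these shares and the background were not tested, and the double-KO count was 7 without double-KO replicate 2 and 13 with a replicate block. The 3 comparisons use the same WT libraries.

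A single gene, KIF26B, differed by a fold of at least 2 in each comparison, which 1.31%, 0.617%, and 1.41% of all genes did in the lines in this order (CGN-KO, CGNL1-KO, double-KO). 4 genes were past the threshold in all 3 comparisons (KIF26B, KIF16B, TUBB2B, and KIF1BP), 4 genes in 2 of them (KIF21B, KIFC3, TUBB4A, and KIF11), 6 genes in 1, and 35 genes in none. The same shares over all genes were not taken, and shared WT libraries favour such overlap, so these counts are a description only. An F test over the 4 genotypes passed 13 of the 49 genes (26.5%), against 29.9% of all genes. RNA of a whole culture was measured, so that fewer cells with an mRNA and less of it per cell cannot be told apart.

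**Figure D1:**
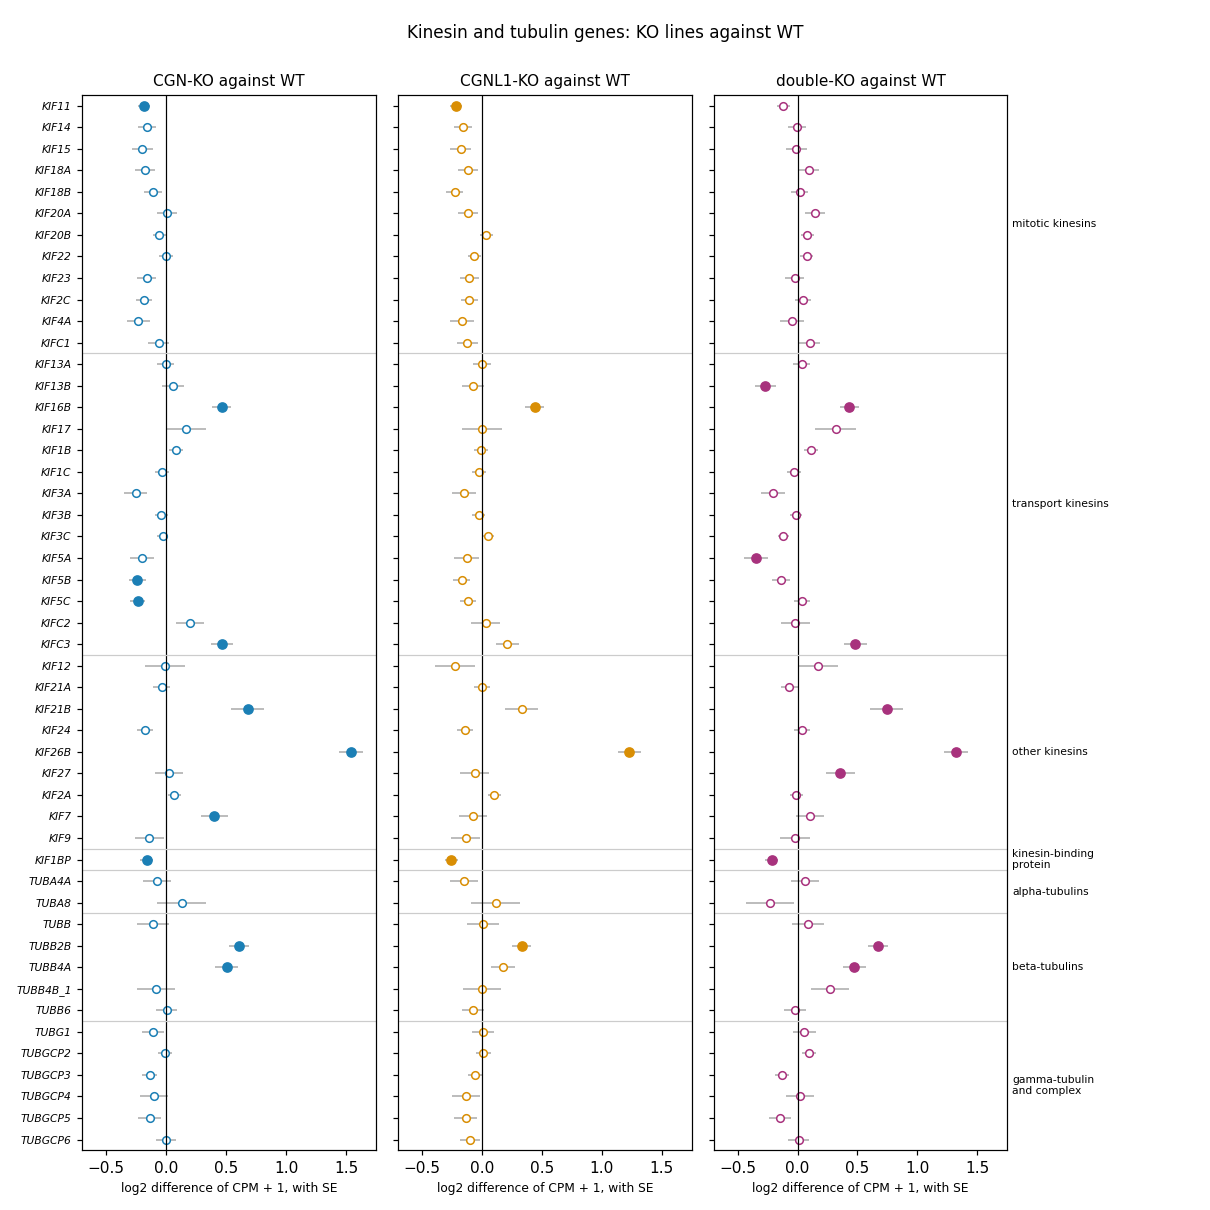
Log2 difference from WT cells for the 49 tested kinesin and tubulin genes, on the log2(CPM + 1) scale, with 1 panel for each KO line, arranged by role. Circles are the fitted differences, horizontal lines are 1 SE, and filled circles have an adjusted p below 0.05. KIF26B lies farthest to the right in each panel, and most mitotic kinesins lie left of 0 in the single-KO lines but not in double-KO cells.

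Among kinesins outside the mitotic and transport classes, KIF26B and KIF21B were the most raised. KIF26B, an unconventional kinesin known for its part in kidney development and cell adhesion, was at 1.77, 2.15, and 2.05 CPM in the 3 WT libraries. It was at 8.28, 7.55, and 7.26 CPM in CGN-KO cells, at 6.10, 6.05, and 5.89 CPM in CGNL1-KO cells, and at 6.30, 6.88, and 6.25 CPM in double-KO cells. Every KO library was thus above every WT library, by a factor of means of 3.86, 3.02, and 3.25. The log2 differences were 1.54 (SE 0.10, limma adjusted p = 1.90e-08), 1.23 (adjusted p = 4.75e-07), and 1.32 (adjusted p = 1.01e-07). The 50 genes nearest to KIF26B in RefSeq order had median log2 differences of -0.02, -0.04, and -0.04, and KIF26B ranked 1 among them in each comparison.

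KIF21B, a plus-end-directed kinesin that limits microtubule growth and is best known in neurons and lymphocytes, was at 13.7, 9.27, and 11.04 CPM in WT cells. Levels were 19.7, 18.1, and 17.9 CPM in CGN-KO cells and 17.1, 19.4, and 22.1 CPM in double-KO cells. CGNL1-KO libraries were at 17.8, 12.01, and 13.9 CPM and overlapped with WT. KIF21B rose by 0.68 on the log2 scale in CGN-KO cells (SE 0.14, limma adjusted p = 0.00245) and by 0.74 in double-KO cells (adjusted p = 0.000897). The difference in CGNL1-KO cells was 0.33 (SE 0.14, adjusted p = 0.161). MAP2, the 1 neuron marker listed of 4, was at 31.6 to 33.7 CPM in WT cells, 26.6 to 30.2 CPM in CGN-KO cells, and 29.3 to 34.2 CPM in double-KO cells. A link between KIF21B and other neuron genes was not tested.

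KIF7, a kinesin of the cilium tip that regulates hedgehog signaling, rose in CGN-KO cells. Its levels were 21.5, 19.4, and 20.7 CPM in WT and 31.2, 25.5, and 26.0 CPM in CGN-KO cells (log2 difference 0.40, SE 0.11, limma adjusted p = 0.0214). CGNL1-KO cells held 23.7, 16.4, and 18.9 CPM and double-KO cells 20.7, 21.3, and 24.7 CPM, and the difference between double-KO and CGN-KO cells did not pass (-0.30, SE 0.11, adjusted p = 0.131). The call in CGN-KO cells was lost without WT replicate 2, WT replicate 3, or CGN-KO replicate 1, with an adjusted p of up to 0.0873. KIF27, a close relative of KIF7 linked to motile cilia, rose in double-KO cells to 7.22, 8.02, and 8.04 CPM from 6.25, 4.91, and 6.45 CPM in WT (log2 difference 0.36, SE 0.12, limma adjusted p = 0.0362). This call was lost without WT replicate 2 or double-KO replicate 2 or 3 (adjusted p up to 0.170) and with DESeq2. The 50 neighbours of KIF27 had a median log2 difference of 0.23 in double-KO cells, with 74% above 0, and KIF27 ranked 15 among them. The most abundant genes of this class did not pass in any line: KIF2A, which takes microtubules apart, KIF21A, and KIF24 had WT means of 134, 29.4, and 27.8 CPM.

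**Figure D2:**
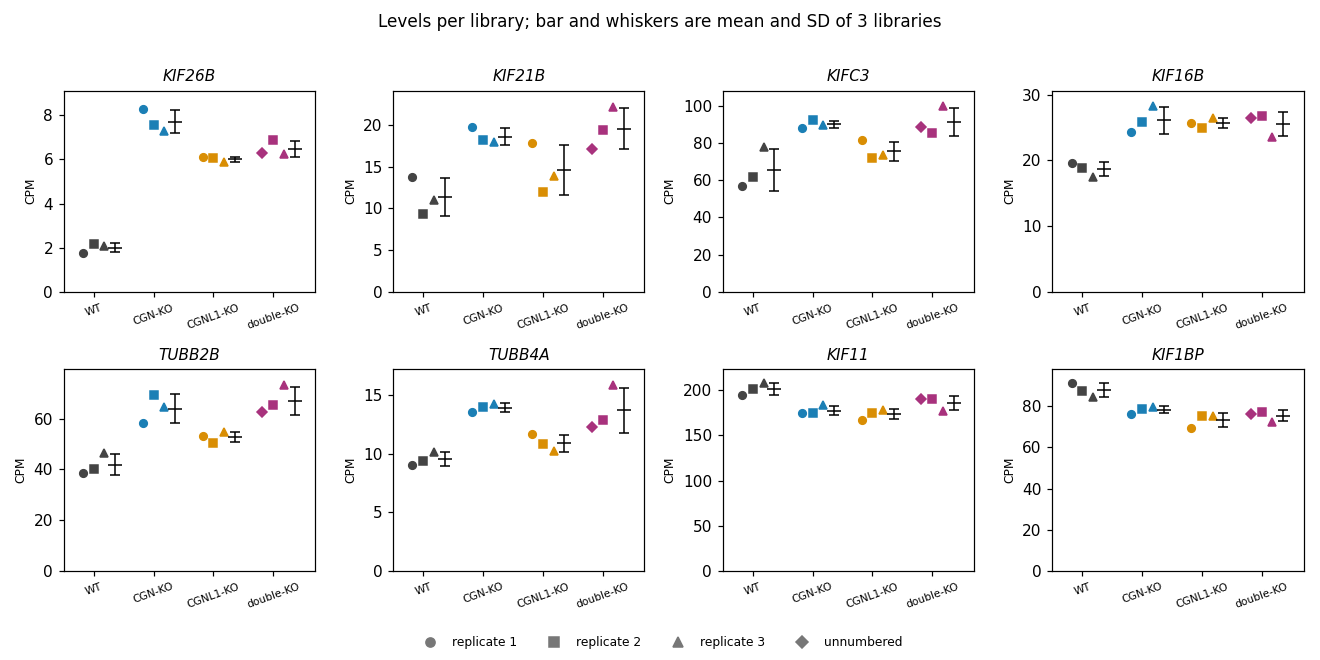
CPM in each of the 12 libraries for the 8 genes that differed from WT in at least 2 KO lines. Symbols give the replicate number, and the bar with whiskers is the mean and SD of 3 libraries. For KIF26B, KIF16B, TUBB2B, and, by a small margin in CGNL1-KO cells, TUBB4A, all KO libraries lie above all WT libraries. For KIF1BP and KIF11 all KO libraries lie below all WT libraries. KIF21B, KIFC3, and TUBB4A are highest in CGN-KO and double-KO cells.

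Of 14 transport kinesins, 2 rose and 2 fell in CGN-KO cells, 1 rose in CGNL1-KO cells, and 2 rose and 2 fell in double-KO cells. These were 28.6%, 7.14%, and 28.6% of the class, against 19.0%, 10.3%, and 26.3% of all genes. KIFC3, a minus-end-directed motor that works on microtubules anchored at adherens junctions and in apical transport, was at 57.0, 61.5, and 78.0 CPM in WT cells. It was at 88.3, 92.1, and 89.6 CPM in CGN-KO cells and at 88.6, 85.6, and 99.8 CPM in double-KO cells, all above the WT libraries. The log2 differences were 0.46 (SE 0.09, limma adjusted p = 0.00193) and 0.48 (adjusted p = 0.00105). CGNL1-KO libraries, at 81.4, 71.8, and 73.5 CPM, overlapped with WT (log2 difference 0.21, SE 0.09, adjusted p = 0.177).

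KIF16B, a kinesin that carries early endosomes, was at 19.6, 18.8, and 17.5 CPM in WT cells. CGN-KO cells held 24.3, 25.8, and 28.3 CPM, CGNL1-KO cells 25.7, 24.9, and 26.4 CPM, and double-KO cells 26.5, 26.7, and 23.5 CPM. KIF16B thus rose in all 3 lines, by 0.46 (SE 0.08, limma adjusted p = 0.000496), 0.44 (adjusted p = 0.00133), and 0.43 (adjusted p = 0.000667) on the log2 scale. The genes around it were raised as well. Its 50 neighbours in RefSeq order had median log2 differences of 0.56, 0.58, and 0.56, with 100% above 0 in each comparison, and KIF16B ranked 37, 42, and 40 among the 51 genes.

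The 3 heavy chains of kinesin-1, the main motor for transport toward the plus end, each passed the threshold in 1 line. KIF5B, the broadly expressed heavy chain, was at 300, 346, and 328 CPM in WT and at 247, 282, and 296 CPM in CGN-KO cells (log2 difference -0.24, SE 0.07, limma adjusted p = 0.0283). KIF5C, which is enriched in neurons, was at 85.5, 91.2, and 79.5 CPM in WT and at 66.6, 79.0, and 71.2 CPM in CGN-KO cells (log2 difference -0.24, SE 0.07, adjusted p = 0.0173). Both fell in CGN-KO cells without overlap with WT. In these cells the neighbours of KIF5B and KIF5C had median log2 differences of -0.12 and -0.10, with 30% and 43.8% above 0. In CGNL1-KO and double-KO cells the log2 differences were -0.17 and -0.14 for KIF5B and -0.11 and 0.04 for KIF5C, and none passed. The difference between double-KO and CGN-KO cells did not pass for KIF5B (adjusted p = 0.445). KIF5A, another neuron-enriched heavy chain, fell in double-KO cells to 11.5, 12.5, and 13.8 CPM from 18.4, 16.9, and 13.8 CPM (log2 difference -0.35, SE 0.10, adjusted p = 0.0202), where the lowest WT library met the highest double-KO library. Its log2 differences of -0.20 and -0.13 in CGN-KO and CGNL1-KO cells did not pass, nor did the difference between double-KO and CGN-KO cells (adjusted p = 0.450). KIF13B, a carrier of membrane scaffold proteins, was at 34.9, 34.9, and 34.7 CPM in double-KO cells and at 47.1, 39.2, and 40.5 CPM in WT (log2 difference -0.27, SE 0.09, adjusted p = 0.0396).

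Each of these 4 decreases was lost when certain single libraries were left out. The call for KIF5B was lost without WT replicate 2 or 3 or CGN-KO replicate 1 (adjusted p up to 0.136), and that for KIF5C without WT replicate 2 or CGN-KO replicate 1 or 3 (up to 0.0995). The call for KIF5A was lost without WT replicate 1 or 2, double-KO replicate 2, or the unnumbered double-KO library (up to 0.10), and also without the 3 libraries numbered 1 (0.0517). That for KIF13B was lost without any one of WT replicates 1 and 3, the double-KO libraries, and replicate 3 of either single-KO line (up to 0.176). KIF1C, a motor of the kinesin-3 family, had a WT mean of 225 CPM and log2 differences between -0.03 and -0.02. KIF3C, which pairs with KIF3A, had a WT mean of 130 CPM and passed in no comparison with WT.

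The 12 mitotic kinesins were examined against the transport class, since they follow cell division. In CGN-KO and CGNL1-KO cells 11 of 12 had a log2 difference below 0, with medians of -0.16 and -0.12, but only KIF11 passed. The CGNL1-KO median was -0.05 without CGNL1-KO replicate 1 and -0.20 without CGNL1-KO replicate 2. In double-KO cells 7 were above 0 and 5 below, with a median of 0.03, and 0 of 12 passed by limma, edgeR, or DESeq2, with 1 at an unadjusted limma p under 0.05. By limma 19.0%, 10.3%, and 26.3% of all genes passed in CGN-KO, CGNL1-KO, and double-KO cells. The share of all genes at an unadjusted p was not taken. The transport kinesins had medians of -0.02, -0.02, and -0.01, and the median over all genes was within 0.0039 of 0 in each comparison.

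KIF11, the motor that pushes the spindle poles apart, was at 195, 202, and 208 CPM in WT cells. It fell to 174, 175, and 183 CPM in CGN-KO cells (log2 difference -0.18, SE 0.05, limma adjusted p = 0.0177) and to 168, 175, and 178 CPM in CGNL1-KO cells (log2 difference -0.22, SE 0.05, adjusted p = 0.0108). Double-KO cells, at 190, 190, and 177 CPM, had a log2 difference of -0.12 that did not pass (SE 0.05, adjusted p = 0.101). The libraries of all 3 lines lay below all WT libraries. The call in CGN-KO cells was lost without WT replicate 2 or 3 or CGN-KO replicate 1 or 2 (adjusted p up to 0.0640), and that in CGNL1-KO cells when only these genotypes were fitted (0.0506). KIF23, a motor of the central spindle, and KIFC1, which focuses spindle poles, were the next most abundant, with WT means of 193 and 126 CPM. Their log2 differences were -0.16, -0.11, and -0.02 for KIF23 and -0.06, -0.12, and 0.10 for KIFC1, and none passed.

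The class was then followed library by library, as the median log2 difference of the 12 genes from their WT means. It was -0.03, 0.04, and -0.00 in the WT libraries and -0.20, -0.10, and -0.07 in CGN-KO replicates 1, 2, and 3. It was -0.27, 0.01, and -0.13 in the CGNL1-KO replicates and 0.05, 0.04, and 0.03 in double-KO cells. CGN-KO libraries were thus below all WT libraries, CGNL1-KO libraries ranged from the lowest value to within the WT range, and the 3 double-KO libraries lay within the WT range or just above it. Replicate 1 was the lowest library of both single-KO lines.

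The difference between the mitotic and transport medians was -0.07, 0.05, and 0.04 in WT and -0.15, -0.05, and -0.09 in CGN-KO libraries. It was -0.29, 0.01, and -0.07 in CGNL1-KO and 0.09, 0.03, and 0.02 in double-KO libraries, so that WT and each KO line overlapped. Without the 3 libraries numbered 1, the mitotic median was -0.13 in CGN-KO cells, -0.08 in CGNL1-KO cells, and 0.02 in double-KO cells. The transport median in CGN-KO cells was then 0.04.

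Other genes of division were followed beside the mitotic kinesins. The median of 24 mitosis genes was -0.13, -0.05, and -0.03 in the CGN-KO replicates, -0.12, 0.01, and -0.04 in the CGNL1-KO replicates, and 0.05, 0.03, and 0.03 in double-KO libraries. That of 16 replication genes was -0.18 and -0.25 in replicate 1 of CGN-KO and CGNL1-KO cells and 0.04 to 0.11 in double-KO cells. Replicate 1 was again the lowest library of both single-KO lines, and the part of cell division in the kinesin values was not tested.

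In the 24 mitosis genes 1 was higher and 1 lower in each single-KO line, and 5 were higher and 0 lower in double-KO cells, where 26.3% of all genes differed. The largest differences were those of AURKA, AURKB, and LIN54. AURKA, a spindle pole kinase, rose by 0.27, 0.26, and 0.30 in the 3 lines (limma adjusted p = 0.00429, 0.0100, and 0.00138). AURKB, the kinase of the chromosomal passenger complex, rose by 0.32 in double-KO cells (adjusted p = 0.00224), and LIN54, a subunit of a complex that controls cell cycle genes, fell by 0.32 in CGNL1-KO cells (adjusted p = 0.00910).

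In the 16 replication genes 1 was higher and 1 lower in each single-KO line, and 3 were higher and 1 lower in double-KO cells, against the same 26.3% of all genes. In CGN-KO and CGNL1-KO cells 19.0% and 10.3% of all genes differed. PCNA, the sliding clamp of DNA polymerase, rose by 0.48, 0.52, and 0.53 (limma adjusted p = 3.27e-05, 2.94e-05, and 9.02e-06). CDC6, which loads the replicative helicase, was lower by log2 differences of -0.44, -0.32, and -0.36 (adjusted p = 0.00174, 0.0226, and 0.00495). RRM2, a subunit of ribonucleotide reductase, rose by 0.37 in double-KO cells (adjusted p = 0.00386).

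**Figure D3:**
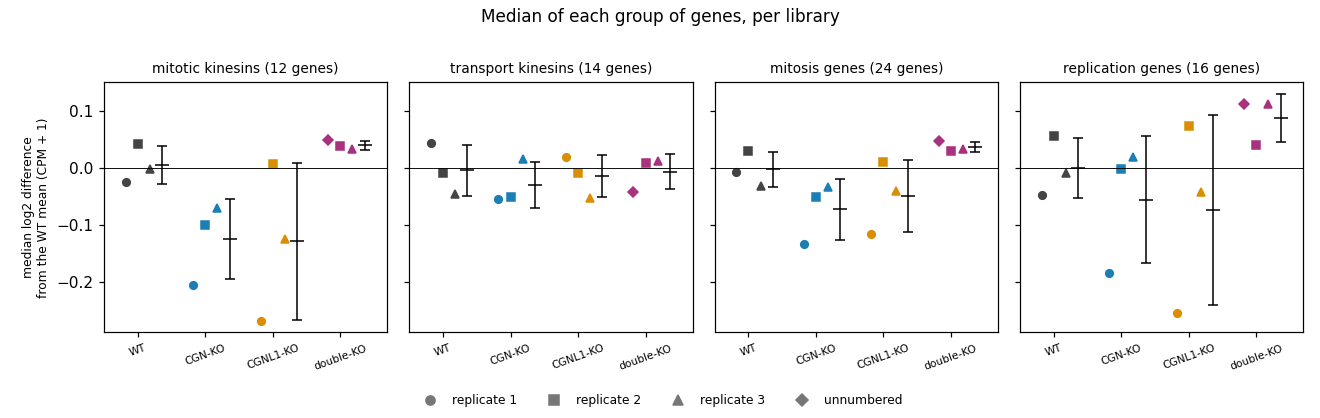
Median log2 difference from the WT mean in each of the 12 libraries, on the log2(CPM + 1) scale, for 12 mitotic kinesins, 14 transport kinesins, 24 mitosis genes, and 16 replication genes. Symbols give the replicate number, and the bar with whiskers is the mean and SD of 3 libraries. Replicate 1 of CGN-KO and CGNL1-KO cells lies lowest for the mitotic kinesins, mitosis genes, and replication genes, and the transport kinesins stay near 0.

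Among the 5 beta-tubulins tested, 2 rose in CGN-KO cells, 1 in CGNL1-KO cells, and 2 in double-KO cells, where 11.2%, 6.81%, and 14.8% of all genes were higher. TUBB2B, an isotype enriched in neurons, was at 38.7, 40.1, and 46.4 CPM in WT cells. CGN-KO cells held 58.1, 69.2, and 64.6 CPM, CGNL1-KO cells 53.0, 50.4, and 54.5 CPM, and double-KO cells 62.4, 65.3, and 73.1 CPM. All KO libraries were above all WT libraries, with log2 differences of 0.61 (SE 0.08, limma adjusted p = 6.14e-05), 0.33 (adjusted p = 0.0142), and 0.67 (adjusted p = 1.65e-05). The call in CGNL1-KO cells was lost without WT replicate 1 or 2 or CGNL1-KO replicate 3 (adjusted p up to 0.0672). The entry for its close paralog TUBB2A, listed under a LOC name, had means of 104 CPM in WT and 114, 109, and 128 CPM in the KO lines in the same order and passed in no comparison.

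TUBB4A, an isotype of the brain, was at 9.02, 9.38, and 10.2 CPM in WT and at 13.5, 14.0, and 14.2 CPM in CGN-KO cells. Double-KO cells held 12.3, 12.9, and 15.9 CPM and CGNL1-KO cells 11.7, 10.8, and 10.2 CPM. TUBB4A rose by 0.50 (SE 0.10, limma adjusted p = 0.00147) and by 0.48 (adjusted p = 0.00177) in CGN-KO and double-KO cells, where it was above WT in every library. In CGNL1-KO cells the log2 difference was 0.18 (SE 0.10, adjusted p = 0.309), and the lowest library was just above the highest WT library (10.22 against 10.18 CPM). The 50 neighbours of TUBB4A had median log2 differences of 0.09, -0.04, and 0.08 in CGN-KO, CGNL1-KO, and double-KO cells. Of these neighbours 76%, 38%, and 60% were above 0, and TUBB4A ranked 3, 7, and 3 among them.

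Levels of the abundant beta-tubulins TUBB and TUBB4B_1 varied widely between libraries of each single-KO line. TUBB, the common beta isotype, was at 925, 1010, and 917 CPM in WT cells and at 700, 992, and 984 CPM in CGN-KO cells. CGNL1-KO cells held 749, 1152, and 1007 CPM and double-KO cells 1033, 964, and 1030 CPM. TUBB4B_1 was at 563, 841, and 786 CPM in CGN-KO cells and at 575, 973, and 803 CPM in CGNL1-KO cells, against 678, 842, and 783 CPM in WT and 947, 871, and 948 CPM in double-KO cells. Replicate 1 of both single-KO lines had the lowest values of both genes. The residual SD was 0.219 for TUBB and 0.261 for TUBB4B_1 on the log2 scale, at or above that of 92.3% and 96.9% of genes, and the median was 0.104 over all genes and 0.113 over the 49 genes. Neither gene passed in any comparison. For TUBB4B_1 all double-KO libraries lay above all WT libraries (log2 difference 0.27, SE 0.16, limma adjusted p = 0.232). TUBB6 was at a mean of 120 CPM in WT and 113 to 120 CPM in the KO lines.

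Of the alpha-tubulins, TUBA4A had a mean of 74.4 CPM in WT cells and 70.9, 67.9, and 77.8 CPM in the KO lines in the same order, and TUBA8 1.67 CPM and 1.96, 1.89, and 1.31 CPM. Neither passed. The entry for TUBA1C, listed under a LOC name, was more abundant, at 348, 392, and 378 CPM in WT and 245, 332, and 333 CPM in CGN-KO cells (log2 difference -0.31, SE 0.15, limma adjusted p = 0.156). It was at 241, 410, and 348 CPM in CGNL1-KO cells and at 393, 340, and 360 CPM in double-KO cells. It was thus low in replicate 1 of both single-KO lines, as TUBB and TUBB4B_1 were.

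**Figure D4:**
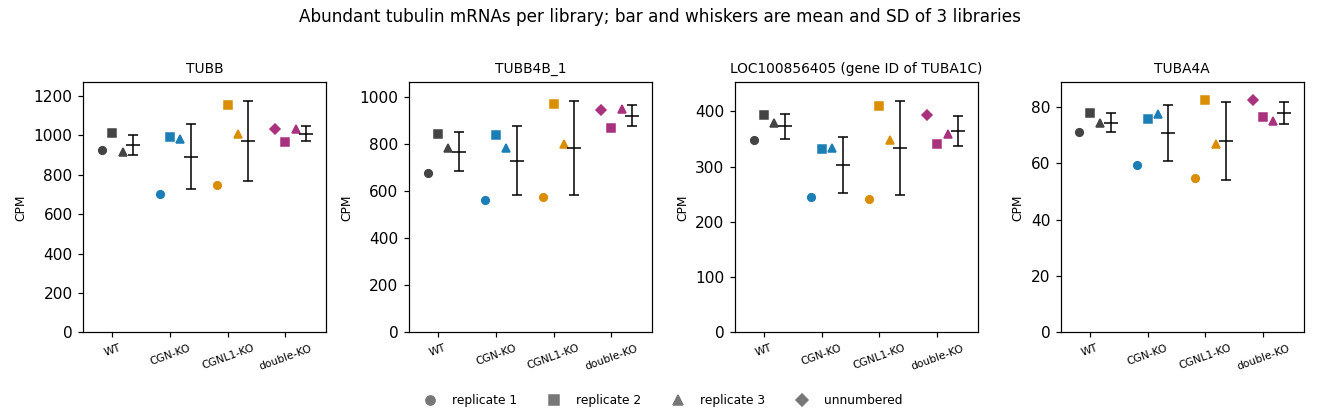
CPM in each of the 12 libraries for the beta-tubulin entries TUBB and TUBB4B_1 and the alpha-tubulin entries for TUBA1C and TUBA4A. Symbols give the replicate number, and the bar with whiskers is the mean and SD of 3 libraries. Replicate 1 of CGN-KO and of CGNL1-KO cells is the lowest library of its genotype in each panel.

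Of gamma-tubulin and its complex, 0 of 6 genes passed in any KO line by limma, edgeR, or DESeq2. At an unadjusted limma p under 0.05 there was 1 gene in CGN-KO cells and 0 in the other lines. TUBG1, gamma-tubulin itself, had WT levels of 65.0, 68.3, and 66.6 CPM and means of 61.8, 67.7, and 69.5 CPM in the KO lines in the same order. TUBGCP2 and TUBGCP3, which bind gamma-tubulin in the small complex, had WT means of 201.1 and 72.1 CPM. Their log2 differences were -0.01, 0.01, and 0.10 for TUBGCP2 and -0.14, -0.06, and -0.13 for TUBGCP3. The median log2 difference of the class was -0.11, -0.08, and 0.01. Among gamma-tubulin partners, 0 of 9 passed in any line by the 3 tools, with 3, 2, and 3 genes at an unadjusted limma p under 0.05. Of all genes 19.0%, 10.3%, and 26.3% passed the adjusted limma p in the lines in the same order, and their share at an unadjusted p was not taken.

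KIF1BP, which keeps several kinesins off the microtubule, fell in all 3 lines. WT cells held 91.4, 87.4, and 84.7 CPM and CGN-KO cells 76.4, 79.0, and 80.0 CPM. CGNL1-KO cells held 69.5, 75.4, and 75.3 CPM and double-KO cells 76.5, 77.5, and 72.6 CPM. All KO libraries were below all WT libraries. The log2 differences were -0.16 (SE 0.05, limma adjusted p = 0.0489), -0.26 (adjusted p = 0.00548), and -0.22 (adjusted p = 0.00775). The call in CGN-KO cells was kept in only 9 of 22 alternatives (adjusted p up to 0.187). It was lost without WT replicate 1 or 2, CGNL1-KO replicate 3, or any one of the CGN-KO or double-KO libraries.

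Partners of the kinesins were counted in a list of 13 genes tested. In CGN-KO cells 1 was higher and 2 lower, in CGNL1-KO cells 0 and 1, and in double-KO cells 2 and 2. MAPK8IP1, a scaffold that links cargo to kinesin-1, rose by 0.42 in CGN-KO cells (limma adjusted p = 0.0250) and by 0.55 in double-KO cells (adjusted p = 0.00360). KLC2, a kinesin-1 light chain, rose by 0.37 in double-KO cells (adjusted p = 0.00375). TRAK2, the adaptor for mitochondria, was lower in the same lines, with log2 differences of -0.27 and -0.20 (adjusted p = 0.00221 and 0.0143).

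Of 24 genes of tubulin folding and relatives, 1 was higher and 1 lower in CGN-KO cells, 2 and 1 in CGNL1-KO cells, and 3 and 1 in double-KO cells. TUBD1, delta-tubulin of the centrioles, rose by 0.50, 0.35, and 0.38 in the 3 lines (limma adjusted p = 0.000514, 0.0143, and 0.00330). PFDN4, a subunit of the prefoldin chaperone, rose by 0.51 in CGNL1-KO cells (adjusted p = 0.00381), and TBCB, a tubulin folding cofactor, by 0.44 in double-KO cells (adjusted p = 0.000557).

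Of 19 tubulin-modifying enzymes, 2 were higher and 1 lower in CGN-KO cells, 0 and 1 in CGNL1-KO cells, and 5 and 2 in double-KO cells. TTLL7, which adds glutamate chains to beta-tubulin, had log2 differences of -0.58, -0.86, and -0.89 (limma adjusted p = 0.00539, 0.000394, and 0.000113). Its WT mean was 1.35 CPM, close to the filter, and its means were 0.575, 0.297, and 0.265 CPM in the KO lines. TTLL7 thus met the filter mainly through WT libraries, which favours a fall in the KO lines, so these p-values cannot serve as support for one. TTLL10, which adds glycine chains, rose by 0.45 and 0.42 in CGN-KO and double-KO cells (adjusted p = 0.0181 and 0.0196). ATAT1, the enzyme that acetylates alpha-tubulin inside the microtubule, was lower in double-KO cells (log2 difference -0.42, adjusted p = 0.0289). The shares of these lists are set against 19.0%, 10.3%, and 26.3% of all genes, and no gene of them passed with a difference of at least 2-fold on the log2(CPM + 1) scale. On the CPM scale itself the TTLL7 means differed by more than this.

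The KO lines were also compared with each other. When the single-KO lines were compared, 1 of 49 genes differed (2.04%, against 5.19% of all genes). This was KIF7, higher in CGN-KO cells by 0.47 on the log2 scale (SE 0.11, limma adjusted p = 0.0223). Deviations from the genotype means correlated across genes between same-numbered libraries of these 2 lines (r = 0.632, 0.475, and 0.179). The labels do not state that these libraries are pairs, and no correlation was computed between libraries of different numbers. The block on the 6 libraries was chosen from these values and was not planned. The share of all genes that passed with this block was not taken, so its count has no background beside it. With a replicate block on these 6 libraries 6 genes passed, all higher in CGN-KO cells. They were KIF7 (limma adjusted p = 3.31e-05), KIFC3 (log2 difference 0.25, adjusted p = 0.000888), TUBB2B (0.27, adjusted p = 0.00134), KIF21B (0.35, adjusted p = 0.00592), TUBB4A (0.33, adjusted p = 0.0112), and KIF26B (0.31, adjusted p = 0.0403). The number in the fit without the block was 0 without CGNL1-KO replicate 2 or 3, 3 without CGNL1-KO replicate 1 or WT replicate 3, and 2 without double-KO replicate 3.

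Between double-KO and CGN-KO cells 3 genes differed (6.12%, against 8.84% of all genes), and between double-KO and CGNL1-KO cells 6 genes (12.2%, against 14.4%). All 12 mitotic kinesins were above 0 in both comparisons, with medians of 0.15 and 0.15. Of all 12650 genes, 6346 and 6374 were above 0. Among the 12, 1 and 2 passed (8.33% and 16.7%), near the shares of all genes. Replicate 1 was the lowest library of this class in both single-KO lines, and these 2 medians were not taken without it. KIF2C, which takes microtubules apart at centromeres, was higher in double-KO than in CGN-KO cells (0.23, SE 0.07, limma adjusted p = 0.0467). KIF18B, a motor of astral microtubules, and KIF20A, which acts in cytokinesis, were higher in double-KO than in CGNL1-KO cells (0.25, adjusted p = 0.0317, and 0.26, adjusted p = 0.0384). KIF2C was at 47.5, 44.0, and 47.5 CPM in double-KO and at 36.2, 42.2, and 39.6 CPM in CGN-KO cells, without overlap. TUBB2B and TUBB4A were also higher in double-KO than in CGNL1-KO cells. The count of 3 genes against CGN-KO cells was 0 without CGN-KO replicate 1 or 3 or the unnumbered double-KO library. It was 1 without CGNL1-KO replicate 3 or double-KO replicate 2 or 3, and 6 without CGNL1-KO replicate 1. The count of 6 genes against CGNL1-KO cells was 1 without CGNL1-KO replicate 3 or double-KO replicate 3. It was 2 without double-KO replicate 2, and 3 without the unnumbered double-KO library.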

How the data were processed

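The authors sequenced RNA from 12 libraries, aligned reads with STAR 2.7.0f, and counted them per gene with HTSeq 0.9.1 (versions from the submitters' processing notes, which name CanFam3.1). The authors deposited library-size-normalized CPM, treated here as a signal because columns do not sum to 1000000. All values were whole multiples of 1 read (100% of values within 0.1 of a whole read), so whole reads were recovered. The column of 1 double-KO library has no number and is called unnumbered.

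Genes above 1 CPM in 3 or more of the libraries were compared on log2(CPM + 1), with a pseudocount of 1, by limma 3.58.1 (eBayes with trend, 4 genotypes in 1 fit) with Benjamini-Hochberg adjustment over all 12650 genes. edgeR 4.0.16 and DESeq2 1.42.0 were run on the recovered reads as alternatives, beside other filters, pseudocounts, library totals, single libraries left out, and a replicate block. The fit was tested on simulated data. The replicate block, which groups libraries of the same number, was fitted on the 11 numbered libraries of all 4 genotypes. A further block on the 6 CGN-KO and CGNL1-KO libraries alone was chosen from the correlation of their deviations and not from the labels. Neighbours are the 25 tested genes on each side in RefSeq order (UU_Cfam_GSD_1.0), or fewer at a chromosome end, used for order alone. KIF1BP and TUBB2B were not found there by symbol, so no neighbours were taken for them.

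Members and lists were chosen with earlier results of these data known. Named were genes past the adjusted p in a comparison with WT, the 3 most abundant of each class, those below the filter, and the 3 largest differences past the adjusted p in each list of partner, mitosis, or replication genes. Genes that differed only between KO lines and the LOC entries were named after their values were seen.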

Additional observations from a re-analysis of the deposited data

Results flagged for a closer look

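10 differences between KO lines passed the adjusted p in the limma fit, each as a direct test of the difference on the log2 scale. Between CGN-KO and CGNL1-KO cells this was KIF7 (0.4731, SE 0.11, limma adjusted p = 0.0223). Between double-KO and CGN-KO cells these were KIF5C (0.2778, adjusted p = 0.0141), KIF13B (-0.3203, adjusted p = 0.0376), and KIF2C (0.2321, adjusted p = 0.0467). KIF5C was at 66.6 to 79.0 CPM in CGN-KO cells and at 86.2 to 89.2 CPM in double-KO cells and at 79.5 to 91.2 CPM in WT cells.

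Between double-KO and CGNL1-KO cells these were TUBB2B (0.3386, limma adjusted p = 0.0102), KIF3C (-0.172, adjusted p = 0.0220), KIF27 (0.4171, adjusted p = 0.0265), KIF18B (0.2462, adjusted p = 0.0317), KIF20A (0.2613, adjusted p = 0.0384), and TUBB4A (0.2994, adjusted p = 0.0490).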

How the results depend on the processing

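Of 26 calls against WT, 16 were kept under all alternatives run and 10 were lost under at least 1, with 0 reversed. The range with single libraries left out was 6 to 15 genes for CGN-KO against WT (6 without WT replicate 2 or CGN-KO replicate 1), 0 to 3 for CGN-KO against CGNL1-KO, 0 to 6 for double-KO against CGN-KO, and 1 to 9 for double-KO against CGNL1-KO. Shares of all genes passing under the alternatives were not taken. With a replicate block the counts were 16, 8, and 13 genes against WT and 5 for CGN-KO against CGNL1-KO (6 with its 6 libraries alone). That last count was 3 with library totals, 2 with DESeq2, and 0 when only these genotypes were fitted. Without the 3 libraries numbered 1, chosen after seeing the data, it was 5, double-KO against CGN-KO gave 5, and counts against WT were 11, 6, and 13. The mitotic median in double-KO cells was 0.0092 to 0.052 with single libraries left out and 0.022 without those numbered 1, and the transport median in CGN-KO cells was then 0.035. The cause of these changes was not tested. The block, which drops the unnumbered library, also ended the KIF5A call in double-KO cells (adjusted p = 0.0766). For other lines at least 1 pair of same-numbered libraries correlated at 0.1 or less: WT pairs with CGN-KO gave 0.373, 0.318, and -0.082, WT pairs with CGNL1-KO 0.329, 0.371, and 0.011, and double-KO pairs -0.235 to 0.086.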
